A study of Mus musculus with 8 samples.

Results

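Nonclassical monocytes of the mouse heart were described from single-cell RNA sequencing of hearts after transverse aortic constriction (TAC), an operation that narrows the aorta and overloads the left ventricle. A barcode (1 captured droplet) was kept with 200 to 6000 genes, 500 to 30000 unique molecular identifiers (UMIs, each standing for 1 captured RNA molecule) and a mitochondrial share under 15%. A kept barcode was taken as a nonclassical monocyte when it held at least 2 UMIs of Cd300e and Treml4 together, at least 1 UMI of Csf1r, fewer than 3 UMIs of Ly6c2 and Chil3 together, fewer than 5 UMIs of C1qa, C1qb and C1qc together, and none of Cd79a or Cd3e. This gave 79 members of 27053 kept barcodes (0.292%, exact 95% binomial interval 0.231 to 0.364). The class set against them, called classical monocytes by its rule, numbered 585. These held at least 3 UMIs of Ly6c2 and Chil3, at least 5 of Lyz2 and fewer than 5 of the C1q genes. Their rule asked for no Csf1r, a UMI of which lay in 23 of 44 in sham and 23 of 38 at TAC 2 weeks. At 4 weeks it lay in 188 of 456 and at 6 weeks in 9 of 47. Of the 585, 361 held at least 10 UMIs of the neutrophil markers named below, so the class is not made up of monocytes alone.

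The mice were wild-type C57BL/6J males aged 8 weeks at surgery, and sham mice had the same operation without the ligature. Hearts were taken 2, 4 and 6 weeks after TAC (labelled TAC-2w, TAC-4w, TAC-6w), and the time of the sham harvest was not stated. Each of the 4 conditions had 1 single-cell library (10x Chromium) and 1 tissue section (10x Visium), so no difference between conditions was tested, and intervals cover counting error alone. By the labels the sham and TAC-6w libraries belonged to batch 3, TAC-2w to batch 1 and TAC-4w to batch 2, so TAC-2w and TAC-4w cannot be told apart from their batches. The labels describe isolated nuclei where the study's methods describe a suspension of enzymatically released cells, and they do not say whether a library pooled animals. Where 4 values follow each other they stand for sham first and then for TAC at 2, 4 and 6 weeks. The libraries held 86671674, 78587992, 48278486 and 28793316 UMIs over 10275, 7924, 8420 and 5854 barcodes, of which 8228, 6501, 6747 and 5577 were kept. Pairs of libraries shared between 9 and 30 barcode sequences.

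Nonclassical monocytes are the patrolling monocytes of the blood: they crawl along the inner wall of vessels, clear debris and carry little of the surface protein Ly6C. They arise largely from classical Ly6C-high monocytes, which enter inflamed tissue through the chemokine receptor Ccr2, and they depend on the nuclear receptor Nr4a1 and on signals through Csf1r, the receptor for macrophage colony-stimulating factor. Treml4 is a receptor of the TREM family, Cd300e an activating immunoglobulin-like receptor of myeloid cells, and Ear2 a secreted ribonuclease. In the heart such cells are found mainly in the blood of the coronary vessels, and a suspension of heart cells does not say whether a monocyte came from blood or from tissue.

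The DNA just before the transcription start of the defining genes is shown because these genes are detected together in the members, and because 2 of the families of factors that bind the motifs searched, PU.1 and C/EBP, are central to myeloid gene control. The windows are the 250 bases before the start in RefSeq (build GRCm38.p6), 5′ to 3′ on the strand of the gene, outside the transcript. Capitals mark matches to the PU.1 motif GAGGAAG and the C/EBP motif TTGCNNAA, searched on both strands, so a PU.1 match on the other strand reads CTTCCTC. They lie at chr17:48264045-48264294 on the plus strand for Treml4, chr11:115062040-115062289 on the minus strand for Cd300e, chr14:44102404-44102653 on the plus strand for Ear2, chr1:171018676-171018925 on the plus strand for Fcgr4 (an Fc receptor for IgG), and chr11:105967698-105967947 on the plus strand for the first listed start of Ace (angiotensin-converting enzyme).
Treml4: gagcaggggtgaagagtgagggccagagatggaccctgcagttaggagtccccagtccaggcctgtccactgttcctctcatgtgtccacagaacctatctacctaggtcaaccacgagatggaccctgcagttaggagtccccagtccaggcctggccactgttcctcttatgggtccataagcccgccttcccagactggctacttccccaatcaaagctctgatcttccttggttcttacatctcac
Cd300e: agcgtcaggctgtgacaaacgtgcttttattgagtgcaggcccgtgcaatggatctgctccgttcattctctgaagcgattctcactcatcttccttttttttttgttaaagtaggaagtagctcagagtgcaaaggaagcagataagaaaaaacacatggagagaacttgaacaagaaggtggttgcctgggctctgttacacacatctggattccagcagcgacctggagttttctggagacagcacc
Ear2: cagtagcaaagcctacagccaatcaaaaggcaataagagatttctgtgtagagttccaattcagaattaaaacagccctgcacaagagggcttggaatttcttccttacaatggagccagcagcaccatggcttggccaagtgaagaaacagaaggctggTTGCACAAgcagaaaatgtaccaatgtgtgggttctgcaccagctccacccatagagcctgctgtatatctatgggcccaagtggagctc
Fcgr4: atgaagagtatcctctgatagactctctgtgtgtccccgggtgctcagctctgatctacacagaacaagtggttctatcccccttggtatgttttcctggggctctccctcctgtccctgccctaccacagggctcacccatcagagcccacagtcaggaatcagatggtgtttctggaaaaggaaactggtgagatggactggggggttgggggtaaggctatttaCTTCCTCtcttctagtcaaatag
Ace: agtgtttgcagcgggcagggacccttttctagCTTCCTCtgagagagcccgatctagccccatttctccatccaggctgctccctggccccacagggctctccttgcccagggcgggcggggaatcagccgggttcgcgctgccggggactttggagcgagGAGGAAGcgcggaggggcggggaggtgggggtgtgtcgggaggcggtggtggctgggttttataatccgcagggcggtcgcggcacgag

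The Treml4 and Cd300e windows held neither motif, nor the NR4A motif (NBRE) AAAGGTCA or the KLF motif CCACACCC. The Ear2 window held 1 C/EBP match, the Fcgr4 window 1 PU.1 match and the Ace window 2 PU.1 matches. Among Treml4, Cd300e and the 21 genes of the nonclassical list below that were called higher, only 18 genes were covered, by 20 windows. Of these windows 4 held the PU.1 motif (Ace, Dusp5, Fcgr4 and Tcf7l2) and 2 the C/EBP motif (Adgre4 and Ear2), with none for the NR4A or KLF motif. A set of 198 windows covered 147 of the genes called higher in nonclassical than in classical monocytes. Of these windows 19.7% held the PU.1 motif, 11.6% the C/EBP motif, 0.505% the NR4A motif and 3.03% the KLF motif. Over all 32851 windows of that length the shares were 10.6%, 9.56%, 1.34% and 3.2%. A match describes letters in a window, and binding was not measured.

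The label was checked against markers that the rule did not use. Of the 79 members, 65 held a UMI of Ear2, 64 of Ace, 63 of Spn (CD43, a sialylated surface protein high on nonclassical monocytes), 62 of Fcgr4, 58 of Adgre4 (an adhesion receptor of the F4/80 family), 75 of Nr4a1 and 45 of Cx3cr1 (the fractalkine receptor), while 14 held one of Ccr2. Free RNA gives UMIs in cells that do not express a gene, so Ear2, Ace and Nr4a1 were read in B cell barcodes the same way. The B cell values of Spn, Fcgr4, Adgre4 and Cx3cr1 are not given here. In sham and the 3 TAC libraries a UMI of Ear2 lay in 0, 0.641, 0.439 and 0.123% of B cell barcodes, against 94.1, 83.9, 68 and 100% of members. The shares of B cell barcodes with Ace were 6.91, 5.77, 1.28 and 5.53%, against 88.2, 80.6, 72 and 100% of members. Median depth was 3231, 3772.5, 4452 and 2015 UMIs in B cell barcodes and 5193, 5248, 5683 and 4113 in members. Nr4a1 lay in 40.2, 47.4, 14.3 and 25.1% of B cell barcodes, so a single UMI of it marks nonclassical monocytes less sharply than one of Ear2. Reads of the closely related ribonuclease genes of the Ear family can be shared among them, so the level of Ear2 itself is uncertain.

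Most members held many genes of the nonclassical programme, not 1 marker alone. Of 26 genes in a fixed list of nonclassical monocyte genes, a member held a median of 20 (5 to 25) and a classical monocyte a median of 9 (2 to 24). The list was drawn up with earlier results of these data known. It also holds genes seen in other cells, such as Nr4a1 in B cell barcodes, so these medians are a description. With every cell thinned to 2000 UMIs the medians were 14 (4 to 20; 78 members deep enough) and 5 (1 to 18; 580 classical monocytes). Both Treml4 and Cd300e were seen in 47 members, Treml4 alone in 25 and Cd300e alone in 7, and Ear2 was seen in 43, 16 and 6 of these. Treml4 reached 331, 404, 389 and 480 counts per 1000000 UMIs (CPM) in the members of sham and the 3 TAC libraries, Cd300e 244, 343, 213 and 280 CPM, and Csf1r 497, 665, 487 and 879 CPM. Members were selected on the UMIs of these 3 genes and of Ly6c2, Chil3, the C1q genes, Cd79a and Cd3e, so these levels are a description.

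Barcodes with nonclassical markers lay on both sides of the threshold. The 17 members with exactly 2 UMIs of Cd300e and Treml4 included 12 with Ear2, 11 with Ace, 12 with Spn and 10 with Adgre4. Of 53 barcodes with 1 such UMI that met the other criteria, 17 held Ear2, 19 Ace, 18 Spn and 20 Adgre4. Neutrophil markers, at the level defined below, were carried by 6 of the 17 and by 28 of the 53 (22 of 32 at TAC-4w). Their part in the lower shares was not tested. Sham and the 3 TAC libraries held 33, 47, 102 and 10 barcodes with at least 2 UMIs of Cd300e and Treml4, and 17, 31, 25 and 6 of these were members. The loss was greatest at TAC-4w, where 33 failed on Csf1r alone, 18 on Ly6c2 and Chil3 alone and 20 on at least 2 criteria. In sham 3 failed on Csf1r alone, 5 on Ly6c2 and Chil3 alone and 6 on the C1q genes alone.

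Markers of other cell types were present in some members. Of the 79, 14 held at least 10 UMIs of the neutrophil markers S100a8, S100a9, Retnlg, Csf3r, Cxcr2 and Ly6g (9 at TAC-4w, 2 each at TAC-2w and in sham, and 1 at TAC-6w), 2 sham members held at least 10 UMIs of 6 fibroblast markers, and 63 held neither. The split was wide: the 63 held at most 6 neutrophil-marker UMIs, and the 14 held 22 to 1455 (median 322). At TAC-4w 5 of the 9 neutrophil-marker members showed fewer than 10 of the 26 nonclassical genes, which no other member in any library did. Ear2 was detected in 8 of the 14 and in 56 of the 63, Spn in 7 and 54, Adgre4 in 6 and 50, and Cd300e in 4 and 49. Of the 14, 10 entered on Treml4 alone. Levels, shares and ratios are therefore also given without barcodes that carried neutrophil or fibroblast markers at this level, a choice made after the values were seen. The test between the classes was not repeated without them. The plot of the members one by one shows this group apart from the rest.

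**Figure D1:**
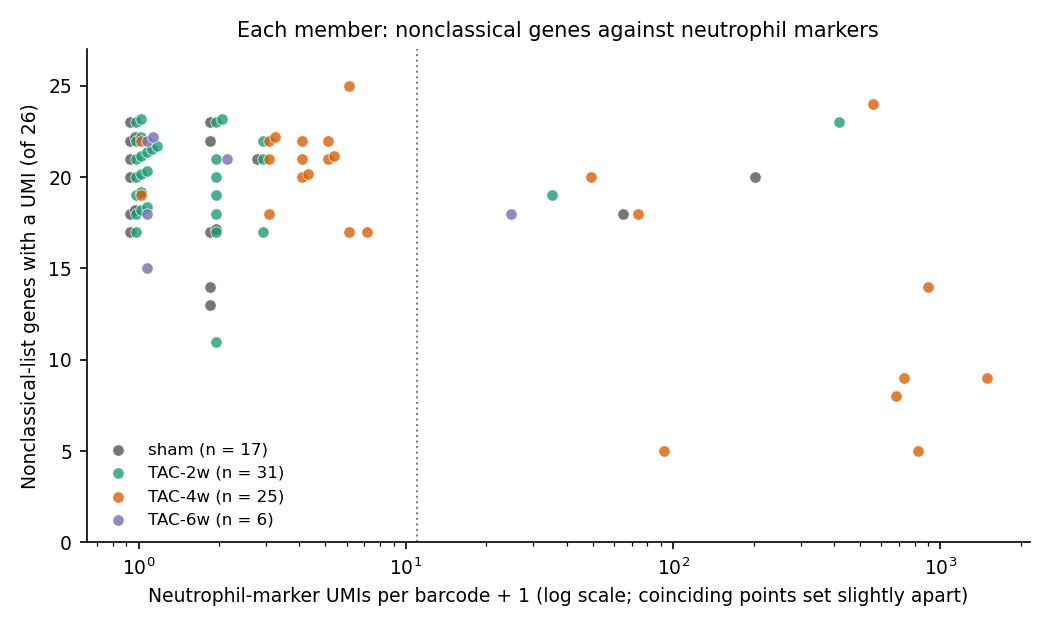
Each point is 1 of the 79 members, coloured by library, with its UMIs of 6 neutrophil markers plus 1 (x, log scale) against the number of 26 nonclassical genes with a UMI (y), and the dotted line marks 10 UMIs. The 63 members with neither marker set hold at most 6 neutrophil-marker UMIs, and 5 TAC-4w members right of the line show fewer than 10 of the nonclassical genes.

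Summed over the members of sham and the 3 TAC libraries, the 6 neutrophil markers reached 2563, 2637, 32276 and 919 CPM, led by S100a9, an antimicrobial calcium-binding protein, with 1534, 1546, 17880 and 440 CPM. Ly6g, a defining neutrophil marker, was at 0 except at TAC-4w. The fibroblast markers reached 8342, 432, 152 and 240 CPM, led in sham by the matrix proteoglycan Dcn with 3591 CPM. The cardiomyocyte markers reached 357, 2127, 30.4 and 0 CPM, led at TAC-2w by the myosin heavy chain Myh6 with 986 CPM, and the endothelial markers 52.3, 49.9, 511 and 0 CPM. Resident macrophage markers reached 95.9, 211, 73.0 and 79.9 CPM, red blood cell markers 785, 277, 468 and 0 CPM, and platelet markers 17.4, 16.6, 158 and 0 CPM. B cell, T cell, NK cell and dendritic cell markers stayed at or under 146, 24.3, 40.0 and 17.4 CPM in every library. The part these signals play in the values below was not tested beyond leaving out the barcodes that carry them.

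Members made up 0.207% of kept barcodes in sham (17 of 8228, exact 95% binomial interval 0.1204 to 0.331), 0.477% of those at TAC-2w (31 of 6501, 0.324 to 0.676), 0.371% of TAC-4w barcodes (25 of 6747, 0.240 to 0.547) and 0.108% at TAC-6w (6 of 5577, 0.0395 to 0.234). The TAC-2w share was 2.31 times the sham share (counting interval 1.24 to 4.45), the TAC-4w share 1.79 times (0.931 to 3.54) and the TAC-6w share 0.521 times (0.168 to 1.38). These intervals hold for the libraries, not for the conditions. Without marker-carrying barcodes the members numbered 13, 29, 16 and 5, and the ratios were 2.82 (1.42 to 5.92), 1.501 (0.677 to 3.39) and 0.567 (0.158 to 1.70). Of all monocytes by these rules, members were 27.9% in sham, 44.9% of the TAC-2w monocytes, 5.20% at TAC-4w and 11.3% in the TAC-6w library, beside classical monocyte numbers of 44, 38, 456 and 47. The share of classical monocytes with at least 10 neutrophil-marker UMIs was 43.2, 34.2, 64.5 and 74.5%, and without such barcodes members were 36.1, 58, 9.14 and 29.4% of monocytes. Thinned to 2000 UMIs, the rule found 3, 15, 7 and 3 members, or 0.0388, 0.246, 0.118 and 0.0663% of the barcodes deep enough. The TAC-6w share then lay above the sham share, on 3 members each. Of the 7 found at TAC-4w only 4 were members at full depth, and in the other libraries all were. With at least 1 UMI of Cd300e and Treml4 the TAC-4w share (0.845%) lay above the TAC-2w share (0.631%). Dissociation can set such shares, and so can batch, which differs from sham at TAC-2w and TAC-4w.

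**Figure D2:**
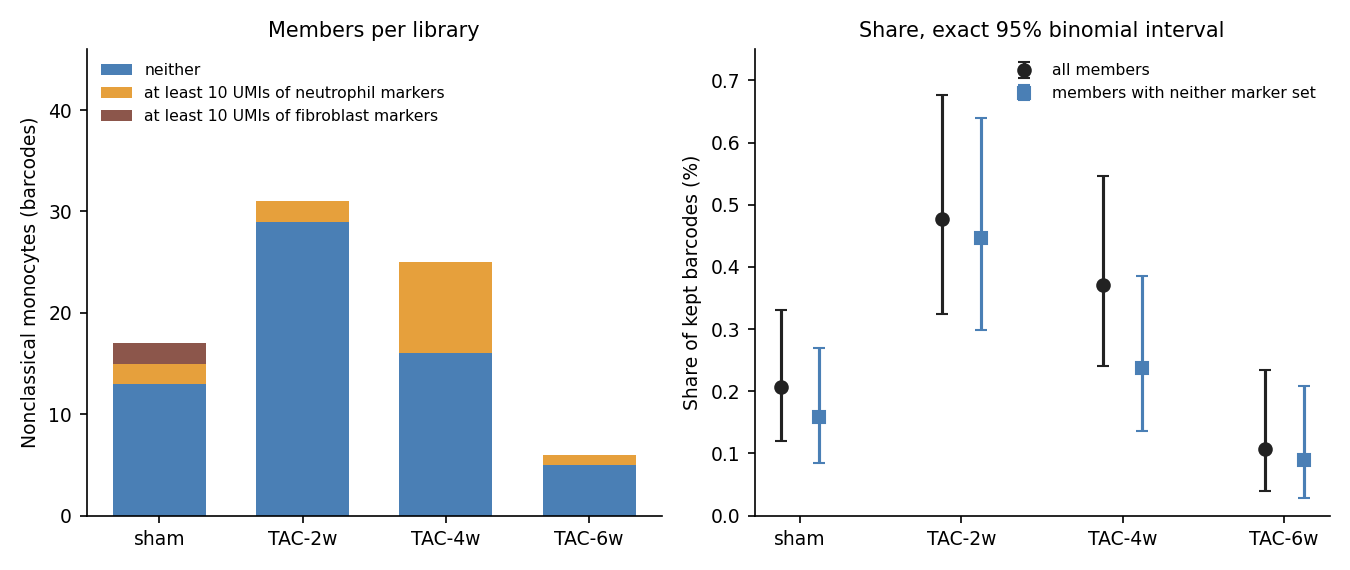
Left, members per library, stacked by whether they carry at least 10 UMIs of neutrophil markers, of fibroblast markers or of neither. Right, members as a percent of kept barcodes with exact 95% binomial intervals, for all members and for those with neither marker set, highest at TAC-2w (0.477%) and lowest at TAC-6w (0.108%).

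The only comparison with several libraries on each side asked how nonclassical monocytes differed from classical monocytes of the same library. Both classes were taken by their rules, with neutrophil-marker barcodes included. UMIs were summed per library and class and fitted with the library as a block in sham, TAC-2w and TAC-4w (edgeR quasi-likelihood test, Benjamini-Hochberg adjustment over 4037 genes, threshold 0.05). TAC-6w, with 6 members, stayed out, and the 11 genes of the rules were not tested. Nonclassical monocytes were higher in 198 genes (4.90% of those tested) and lower in 187 (4.63%), and the median log2 fold change over all genes was -0.03. Without TAC-4w these counts were 72 and 96, and without the library block 122 and 66. Of the fixed list of nonclassical genes 21 of 26 were higher and 1 lower (median 2.06), and of 19 classical genes tested 1 was higher and 11 lower (median -1.25). Both lists were drawn up with earlier results of these data known. The 3 libraries stand for 3 conditions and no labels tie them to separate animals beyond that, so the p-values measure the spread between these libraries.

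Among the genes of the nonclassical list, the surface proteins Fcgr4, Spn, Adgre4, Itgal, Cx3cr1 and S1pr5 were higher in nonclassical monocytes in every library. Fcgr4 (ENSMUSG00000059089) was at 523, 704, 566 and 479.7 CPM in the nonclassical monocytes of sham and the 3 TAC libraries and at 79.2, 99.99, 51.0 and 35.2 CPM in the classical monocytes. Its log2 fold change was 2.84 ± 0.22 (SE, 3 libraries), with an edgeR adjusted p of 0.000207. Spn was at 305, 399, 334 and 399.7 CPM against 50.1, 66.7, 39.9 and 31.7 CPM, Adgre4 at 235, 377, 243 and 359.8 CPM against 47.5, 55.6, 20.4 and 7.05 CPM, and the integrin chain Itgal, a part of LFA-1 that binds the vessel wall, at 593, 543, 693 and 839 CPM against 108, 162, 108 and 155 CPM. The log2 fold changes of these 3 were 2.58 ± 0.23, 2.76 ± 0.29 and 2.11 ± 0.22. Cx3cr1, which holds patrolling monocytes to the endothelium, differed less, at 157, 238, 292 and 319.8 CPM against 73.9, 82.2, 75.7 and 38.8 CPM (log2 fold change 1.39 ± 0.26, edgeR adjusted p = 0.0115). S1pr5, a sphingosine-1-phosphate receptor that guides cells out of the marrow, was at 87.2, 99.7, 109 and 119.9 CPM against 15.8, 4.44, 4.08 and 14.1 CPM.

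Ear2 was at 732, 504, 693 and 1039 CPM in nonclassical and 63.3, 176, 60.5 and 70.5 CPM in classical monocytes (log2 fold change 2.66 ± 0.41, edgeR adjusted p = 0.0122), and Ace at 418, 515, 450.0 and 1039 CPM against 71.3, 136, 33.5 and 42.3 CPM (2.59 ± 0.32, 0.00187). The classical level of both genes was highest at TAC-2w. Eno3, an enolase best known from muscle, was at 427, 393, 310.2 and 479.7 CPM against 71.3, 93.3, 13.4 and 14.1 CPM, and the G protein subunit Gngt2 at 1508, 1706, 1545 and 3398 CPM against 322, 367, 217 and 215 CPM. Cebpb, Gpr141, Itgax and Cd9 did not pass, with log2 fold changes of 0.40, 0.86, 1.72 and -0.46. Pglyrp1, a peptidoglycan-binding protein that neutrophils also store, was the list's 1 gene called lower, with a log2 fold change of -1.03 ± 0.24. Without marker-carrying barcodes its direction turned, at 321, 591, 694 and 883 CPM in nonclassical against 118, 131, 50.1 and 221 CPM in classical monocytes.

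**Figure D3:**
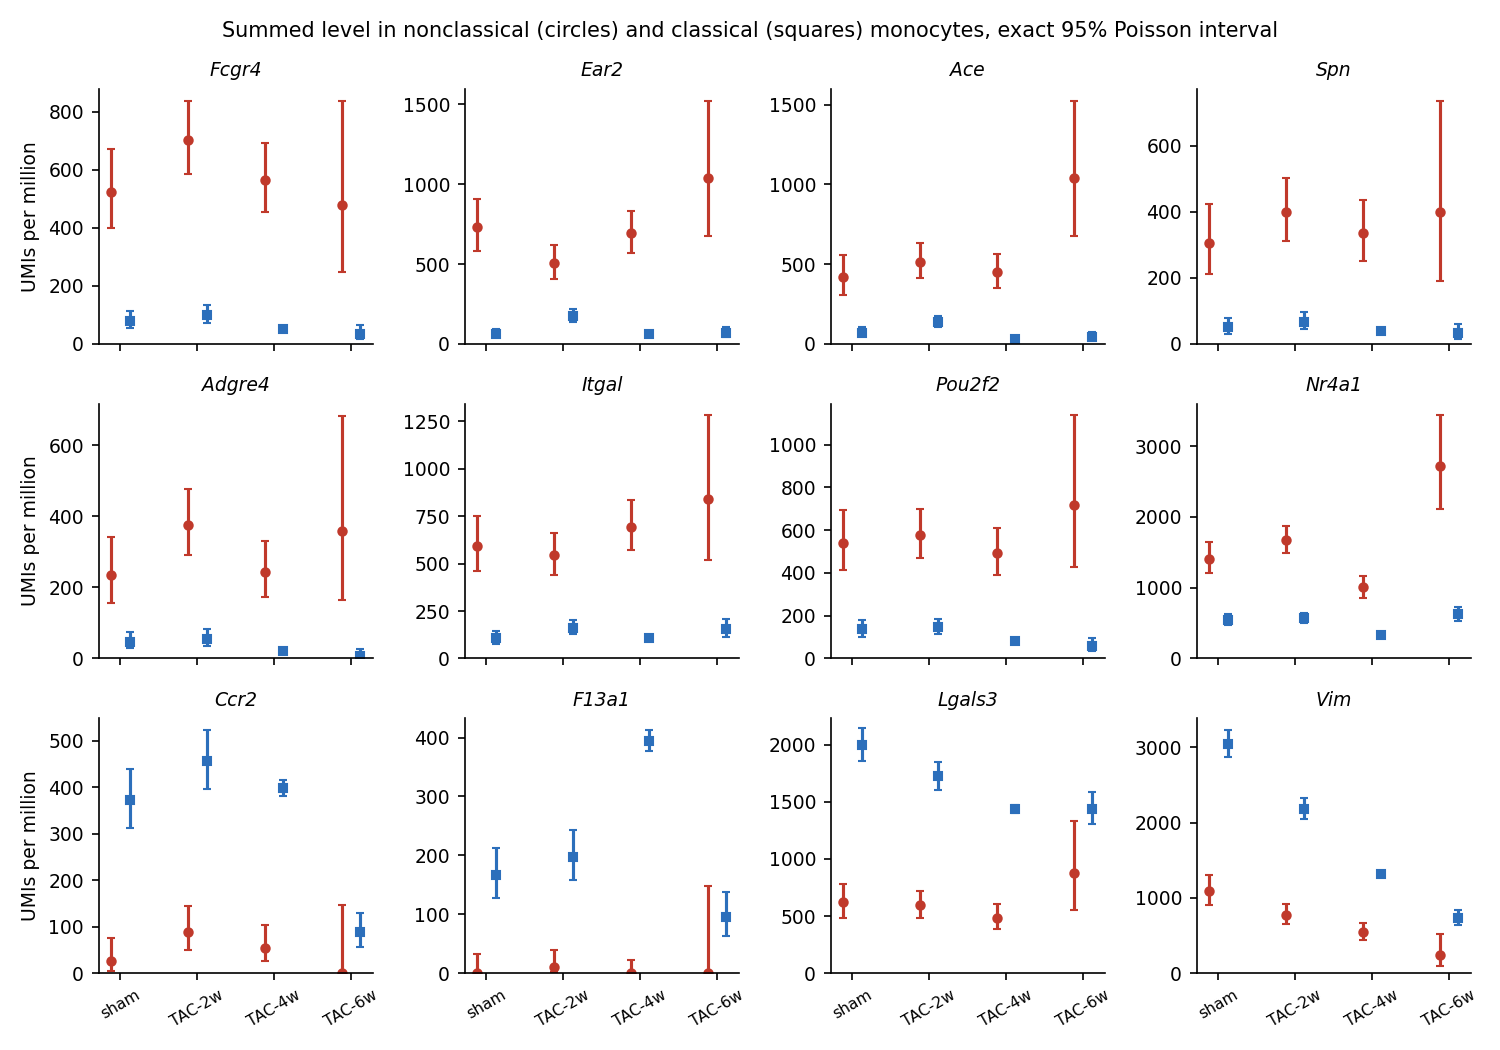
Level in CPM (linear axis from 0) of 12 genes in nonclassical (red circles) and classical monocytes (blue squares) of each library, with exact 95% Poisson intervals. Fcgr4, Ear2, Ace, Spn, Adgre4, Itgal, Pou2f2 and Nr4a1 are higher in nonclassical monocytes in each library, and Ccr2, F13a1, Lgals3 and Vim are lower, with wide intervals at TAC-6w.

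Among 22 transcription factors tested, 7 were higher (Pou2f2, Hes1, Nr4a1, Bcl6, Klf4, Tcf7l2 and Klf2), beside 4.90% of all genes. A single one was lower (Id3, beside 4.63%), and the list median was 0.44. Nr4a1, on which these cells depend, was at 1412, 1673, 1003 and 2718 CPM in nonclassical and 546, 571, 335 and 624 CPM in classical monocytes, a log2 fold change of 1.32 ± 0.15 (edgeR adjusted p = 0.00129). Pou2f2, the octamer-binding factor Oct2, was at 540.5, 576, 493 and 719.5 CPM against 137, 147, 80.7 and 59.9 CPM. The Notch target Hes1 was at 654, 366, 414 and 879 CPM against 124, 86.7, 39.7 and 95.1 CPM. The related receptors Nr4a2 and Nr4a3 had log2 fold changes of 0.20 and -0.22 and did not pass. Spi1, which encodes PU.1, and Cebpa had 0.51 and -0.92 and did not pass. The anti-apoptotic gene Bcl2 was the 1 of 9 survival genes that passed (beside 4.90% of all genes called higher), at 105, 83.1, 85.1 and 79.9 CPM against 42.2, 35.6, 16.7 and 10.6 CPM (log2 fold change 1.49 ± 0.34).

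Of the genes of classical monocytes 11 of 19 were lower in the members (beside 4.63% of all genes), to unequal degrees. Of the 585 classical monocytes 361 held at least 10 neutrophil-marker UMIs, and the neutrophil markers had a median log2 fold change of -4.46. Ccr2 was at 26.2, 88.6, 54.7 and 0 CPM in nonclassical and 372, 456, 399 and 88.1 CPM in classical monocytes (log2 fold change -3.02 ± 0.30, edgeR adjusted p = 0.000679). F13a1, coagulation factor XIII, was at 0, 11.1, 0 and 0 CPM against 166, 198, 395 and 95.1 CPM, with a single library giving any UMI in members. The intermediate filament Vim was at 1089.6, 776, 541 and 239.8 CPM against 3048, 2184, 1320.0 and 729 CPM, and S100a6, S100a4, Anxa2, Hp, Mgst1, Vcan and Fn1 were also lower. Without marker-carrying barcodes Vim was at 423, 727, 486 and 312 CPM against 3446, 2569, 2490.4 and 1252 CPM and Hp at 189, 448, 347 and 467 CPM against 629, 591, 1449.7 and 839.8 CPM. Mgst1, at 117, 236, 243 and 104 CPM against 199, 144, 527 and 295 CPM, then had no single direction over sham, TAC-2w and TAC-4w, and the other classical genes named here kept theirs. Clec4a1, a C-type lectin, was the list's 1 gene called higher, at 349, 360.1, 328 and 199.9 CPM against 137, 107, 69.8 and 24.7 CPM. Over the adhesion and migration list, 7 of 19 genes were higher (Spn, Itgal, Itga4, Cxcr4, S1pr5, Cx3cr1 and Ceacam1), beside 4.90% of all genes. In the same list 2 were lower (beside 4.63%), Ccr2 among them.

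**Figure D4:**
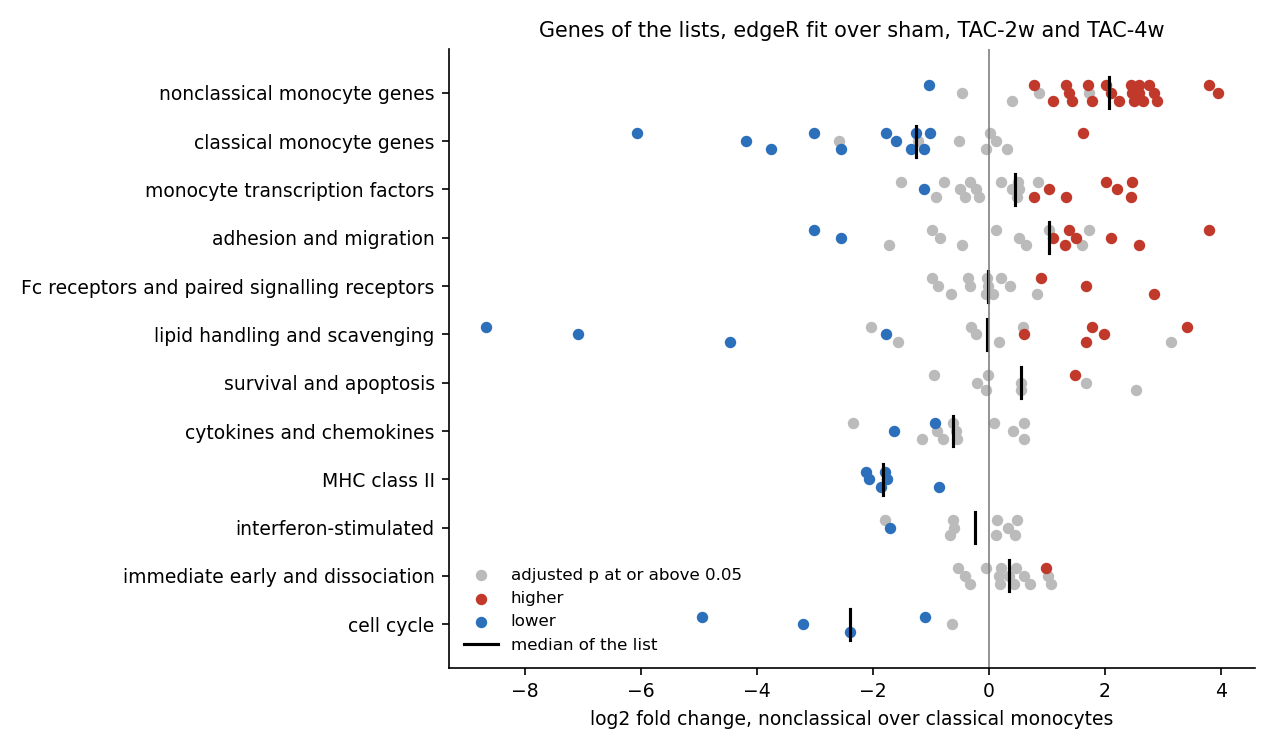
Log2 fold change of each tested gene of 12 lists, nonclassical over classical monocytes, with genes called higher in red, called lower in blue and the others in grey, and a black bar at the list median. The nonclassical list has its median at 2.06, the classical list at -1.25 and the MHC class II list at -1.83.

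All 6 MHC class II genes tested, which present antigen to T helper cells, were lower in nonclassical monocytes (list median -1.83), beside 4.63% of all genes. H2-Ab1 was at 497, 349, 48.7 and 279.8 CPM in nonclassical and 1488, 1519.9, 211 and 247 CPM in classical monocytes (log2 fold change -2.06 ± 0.20, edgeR adjusted p = 0.000606). Nonclassical monocytes were lower in sham, TAC-2w and TAC-4w, and in the TAC-6w library, outside the fit, their 7 UMIs gave a value slightly above the classical one. H2-Aa was at 628, 476, 79.1 and 359.8 CPM against 1409, 1793, 259.6 and 314 CPM (-1.75 ± 0.20), and the invariant chain Cd74 at 2589, 1562, 729.8 and 2079 CPM against 3594, 3935, 847 and 997 CPM (-0.86 ± 0.18). Without marker-carrying barcodes all these values were lower in nonclassical monocytes in all 4 libraries, H2-Aa at 699, 249, 139 and 467 CPM against 2204, 2639, 452 and 1179 CPM and H2-Ab1 at 539, 174, 81.0 and 364 CPM against 2336, 2131, 367 and 899 CPM. The rule for classical monocytes sets no limit on dendritic cell genes, and the share of dendritic cells among them was not tested.

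Lipid genes split between the classes: 5 of 16 were higher (Fabp4, Apoc2, Abcg1, Pltp and Apoe), beside 4.90% of all genes. Another 4 were lower (Lgals3, Spp1, Gpnmb and Trem2), beside 4.63%, and the list median was -0.03. Fabp4, a fatty acid binding protein, was at 628, 803, 2712 and 759.5 CPM in nonclassical and 55.4, 99.99, 152 and 3.52 CPM in classical monocytes, and 1 member held 56.6% of its UMIs. Without marker-carrying barcodes Fabp4 was at 408, 827, 659 and 987 CPM against 66.5, 171, 78.2 and 0 CPM, and Apoe did not keep 1 direction. Lgals3 (galectin-3), which activated macrophages secrete, was at 619, 593, 487 and 879 CPM against 1998, 1724, 1438 and 1441 CPM, and Spp1 (osteopontin) at 0, 0, 6.08 and 40.0 CPM against 229.6, 504, 110.5 and 106 CPM. No cytokine or chemokine was higher, and of 13 tested Osm and Ccl9 were lower (beside 4.63% of all genes). Il1b had a log2 fold change of 0.41 ± 0.23 and Cxcl2 of -0.62 ± 0.86, and neither passed.

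Proliferation genes were lower, 4 of 5 tested (Hmgb2, Mki67, Top2a and Stmn1, median -2.40), beside 4.63% of all genes. Mki67 was at 0, 5.54, 0 and 0 CPM in nonclassical and 50.1, 51.1, 80.7 and 17.6 CPM in classical monocytes, the former from a single UMI. The shares of all tested genes, 4.90% higher and 4.63% lower, stand beside the short lists that follow. Of 15 Fc and paired receptors Fcgr4, Cd300ld and Cd300a were higher. Of 15 immediate early and dissociation genes Dusp1 alone passed, at 2641, 2670.2, 3406 and 1679 CPM against 1333, 1115, 1409.7 and 789 CPM, and the list median was 0.35. Of 10 interferon-stimulated genes only Ifitm6 passed, as lower (log2 fold change -1.71 ± 0.23), and without marker-carrying barcodes it was 452, 578, 544 and 467 CPM against 215, 333, 781 and 486 CPM. Of the markers of other cell types Ly6g, Igkc and Nkg7 were lower, and Pecam1, Tnnt2 and Ttn higher. Over the tested genes of each list the median log2 fold change was -4.46 for 6 neutrophil markers, -1.41 for 6 fibroblast markers, -2.38 for 4 red blood cell markers and 2.75 for 4 cardiomyocyte markers.

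The 10 genes with the greatest log2 fold changes were Adrb1, Lilra5, Slc12a2, S1pr5, Cavin2, Fabp4, Smpdl3b, Cyp2ab1, Smagp and Eno3, from 4.86 down to 2.90. Adrb1, the beta-1 adrenergic receptor, gave only 18 UMIs in the 73 members of the fit, spread over 17 members, at 52.3, 27.7, 42.6 and 0 CPM against 5.28, 0, 0.583 and 0 CPM (log2 fold change 4.86 ± 1.25, edgeR adjusted p = 0.0425). It was low in level but present in members of sham, TAC-2w and TAC-4w alike. Lilra5, an activating leukocyte receptor, was at 122, 88.6, 60.8 and 40.0 CPM against 0, 6.67, 2.72 and 0 CPM (4.37 ± 0.69, 0.00548), with 40 UMIs in 28 members. The cotransporter Slc12a2, which carries sodium, potassium and chloride, was at 87.2, 188, 79.1 and 79.9 CPM against 5.28, 17.8, 2.53 and 7.05 CPM (3.95 ± 0.43, 0.00101). Smpdl3b, a membrane phosphodiesterase, was at 105, 144, 176 and 0 CPM against 21.1, 24.4, 6.42 and 14.1 CPM. Cavin2, a coat protein of caveolae, rested on 7 members, of which 1 TAC-4w member held 81.9% of the UMIs.

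The 10 genes with the smallest log2 fold changes were Camp, Ltf, Ngp, Fcnb, Itgb2l, Pclaf, Mgst2, Cebpe, Gpnmb and Nkg7. Most are made in developing neutrophils. Ltf (lactoferrin), a granule protein, gave 0 UMIs in members and 17498 in classical monocytes of the fit, at least 352-fold lower against a floor of 3 UMIs over the group. Camp (cathelicidin) gave 1 and 69581 UMIs, a ratio of classical to nonclassical of 5357 (counting interval 961 to 211586), and Ngp (neutrophilic granule protein) 2 and 79222 UMIs, a ratio of 3050 (844 to 25181). The other genes with 0 UMIs in members were at 20.4 (Gpnmb) to 104.5 CPM (Fcnb) in the summed classical monocytes of the fit. The floor of 3 UMIs stands for 6.53 CPM in the members. Without marker-carrying barcodes the difference in granule genes was no longer there: classical monocytes held 6.81 CPM of Ngp, 6.81 of Camp, 2.73 of Ltf and 0 of Itgb2l. Gpnmb (49.1 CPM), a lysosomal glycoprotein, Pclaf (63.6 CPM), a replication factor, and Nkg7 (25.9 CPM), a cytotoxic granule protein, remained in classical monocytes and were at 0 in the members.

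Of the 198 genes called higher, 195 were higher in each of the 3 libraries, and 185 were so without marker-carrying barcodes. Of the 187 called lower, 185 were lower in each library, and 130 without marker-carrying barcodes, where 4 ran the opposite way in each. In the TAC-6w library, which the fit did not use, 176 of the 198 were higher and 164 of the 187 lower, as a description of 6 members and 47 classical monocytes.

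The members of each TAC library were then set against those of sham, gene by gene, to see how these cells differed after pressure overload. With 1 library a condition, a gene was listed, given 50 UMIs or more in the sham or the TAC sum, when the ratio of CPM was at least 2 or at most 0.5. The members summed to 114717, 180512, 164428 and 25016 UMIs in sham and the 3 TAC libraries. At TAC-2w 26 of 513 genes were higher (5.07%) and 14 lower (2.73%). The TAC-4w members had 78 of 492 higher (15.9%) and 23 lower (4.67%), and the TAC-6w members 15 of 295 higher (5.08%) and 40 lower (13.6%). Without marker-carrying barcodes TAC-2w had 26 higher (5.92%) and 5 lower (1.14%) of 439, TAC-4w 7 higher (2.73%) and 11 lower (4.30%) of 256, and TAC-6w 10 higher (5.08%) and 26 lower (13.2%) of 197, so the excess of higher genes at TAC-4w was not present there. The 3 ratios share the sham members.

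Over all members 4 MHC class II genes had enough UMIs (H2-Aa, H2-Ab1, H2-Eb1 and Cd74). All 4 had ratios to sham of at most 0.5 at TAC-4w, beside 4.67% of all 492 genes. Without marker-carrying barcodes only Cd74 reached the minimum of 50 UMIs, with a ratio of 0.504 that did not pass, and values of the others are given below that minimum. H2-Eb1 was at 758, 283, 42.6 and 159.9 CPM in the members of sham and the 3 TAC libraries, and at 714, 99.5, 57.8 and 208 CPM without marker-carrying barcodes. Sham was highest in both series and TAC-4w lowest. H2-Aa was at 628, 476, 79.1 and 359.8 CPM and at 699, 249, 139 and 467 CPM without those barcodes, which gave ratios to sham of 0.356 (counting interval 0.228 to 0.552) for TAC-2w, 0.199 (0.0960 to 0.379) for TAC-4w and 0.668 (0.288 to 1.38) for the TAC-6w members. Cd74 was at 2589, 1562, 729.8 and 2079 CPM, and at 2549.9, 1163, 1284 and 2649 CPM without them, with ratios of 0.456 (0.369 to 0.564), 0.504 (0.393 to 0.643) and 1.04 (0.745 to 1.43). These UMIs came from few cells: over all members, marker-carrying ones included, H2-Aa was detected in 7, 11, 9 and 1, and at TAC-2w 1 member held 52.3% of it. In classical monocytes of the same libraries H2-Aa was at 1409, 1793, 259.6 and 314 CPM, lower at TAC-4w and TAC-6w than in sham as well.

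Cytokine and chemokine genes differed in how far they rested on marker-carrying barcodes. Without them Il1b, Ccl6 and Cxcl2 had ratios of at least 2 at TAC-2w, 3 of 4 genes with enough UMIs (beside 5.92% of all genes). The median over the 4 was 1.33 on the log2 scale. At TAC-4w Cxcl2 had such a ratio, 1 of 2 (beside 2.73%). Il1b, an inflammatory cytokine, was at 1098, 2393, 5084 and 439.7 CPM in all members and at 612, 1654, 532 and 104 CPM without marker-carrying barcodes. Leaving them out took the TAC-4w value from the highest of the 4 libraries to below sham. Cxcl2, a neutrophil chemoattractant, was at 689, 2066, 7772 and 959 CPM and at 248, 1181, 1400.0 and 312 CPM without those barcodes, so that TAC-2w and TAC-4w stayed above sham with ratios of 4.77 (2.90 to 8.36) and 5.65 (3.39 to 10.0). Over all members, marker-carrying ones included, Cxcl2 was detected in 7 of 17, 11 of 31, 12 of 25 and 2 of 6. Among these 1 TAC-2w member held 42.9% of its UMIs there. These counts do not say on how many members the ratios without marker-carrying barcodes rest. Ccl3 was at 384, 543, 803 and 799 CPM and 627, 535, 428 and 312 CPM, and Ccl4 at 349, 227, 1533 and 959 CPM and 525, 230.0, 775 and 312 CPM. Over all members at TAC-4w, all 5 cytokine genes and all 4 neutrophil markers with enough UMIs had ratios of at least 2, beside 15.9% of all 492 genes. Their medians were 2.14 and 3.29 on the log2 scale, beside 0.16 over all genes.

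**Figure D5:**
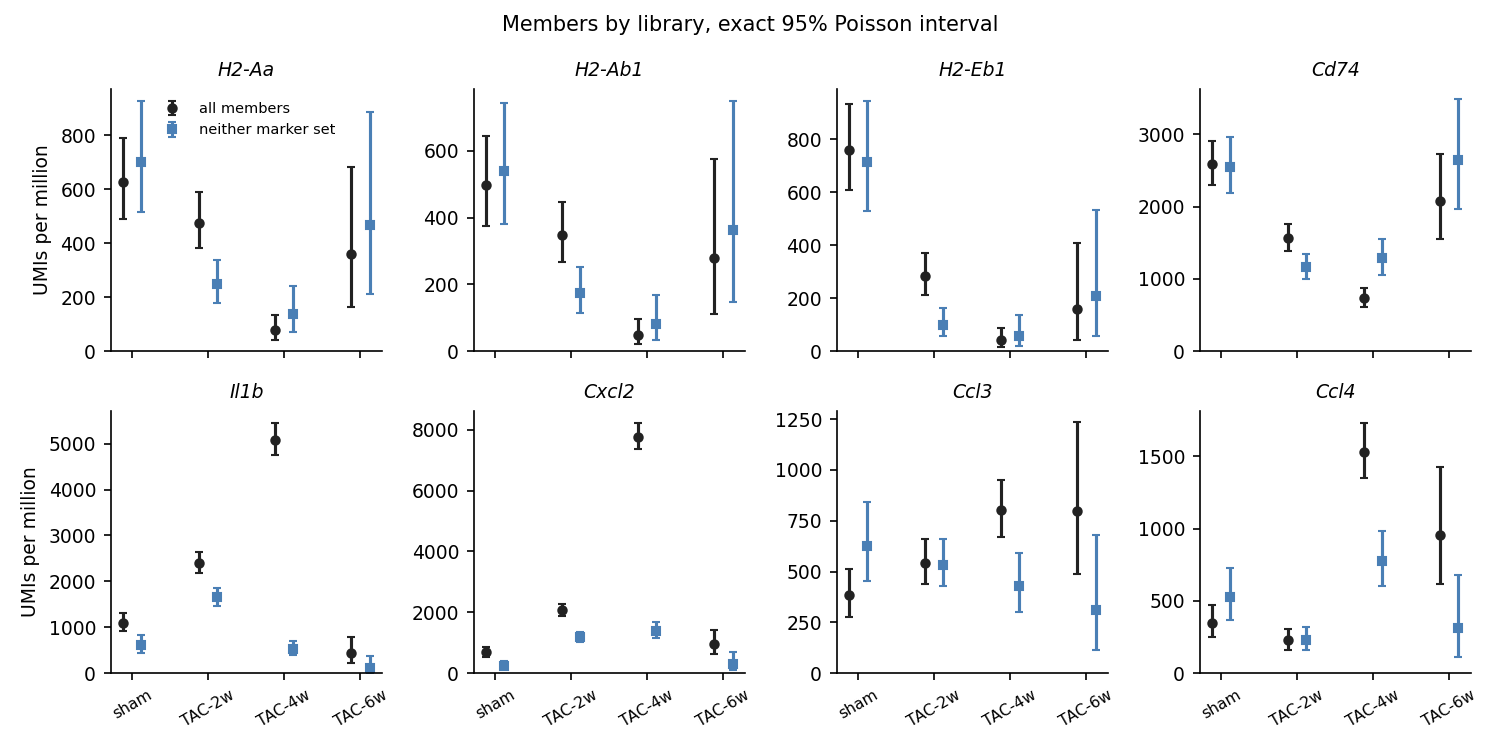
Level in CPM of 4 MHC class II genes and 4 cytokine or chemokine genes summed over the members of each library, for all members (black) and without neutrophil- or fibroblast-marker members (blue), with exact 95% Poisson intervals. H2-Eb1 is highest in sham and lowest at TAC-4w in both series, and Il1b at TAC-4w drops from 5084 to 532 CPM when those members are left out.

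Of 19 nonclassical genes with enough UMIs at TAC-2w, 2 were at or above a ratio of 2 (Pglyrp1 and Stap1, beside 5.07% of all genes) and none at or under 0.5, with a median log2 ratio of 0.39 beside 0.20 over all 513 genes. At TAC-4w 2 of 19 were above (Pglyrp1 and Cd9, beside 15.9%) and none below (median 0.23 beside 0.16), and at TAC-6w 1 of 10 was above (Gngt2, beside 5.08%) and none below (0.50 beside 0.14). Without marker-carrying barcodes 0 of 19 were at or above a ratio of 2 at TAC-2w (beside 5.92% of all genes). At TAC-4w 1 of 13 was (Pglyrp1, beside 2.73%), and in the TAC-6w members 1 of 9 (Gngt2, beside 5.08%). Ear2 was then under a ratio of 0.5 at TAC-2w, at 1137, 535, 1111 and 1091 CPM over the 4 libraries, and Hes1 at TAC-4w, at 758, 410.3, 208 and 987 CPM. Of the immediate early and dissociation genes 1 of 14 was then lower at TAC-2w (beside 1.14% of all genes) and 4 of 13 at TAC-4w (beside 4.30%). At TAC-6w 5 of 11 were lower (beside 13.2%). Fos and Jun were among those lower at TAC-4w and TAC-6w. Over all members 1 of 15 was lower at TAC-2w (Egr1, beside 2.73% of all genes) and 1 of 15 at TAC-4w (Hspa1b, beside 4.67%). At TAC-6w 1 of 14 was lower (Fos, beside 13.6%) and 1 higher (Hspa1b, beside 5.08%). The part of dissociation in this was not tested.

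The genes with the most extreme ratios often rested on 1 member. At TAC-2w Myh6 (ratio 14.1, counting interval 7.02 to 33.3) and titin, Ttn (13.2, 6.23 to 33.3), both proteins of the heart muscle fibre, had 88.8% and 92.4% of their UMIs in 1 member. With Scrublet doublets removed, which took out 1 TAC-2w member, their ratios were 1.67 (0.705 to 4.38) and 1.05 (0.372 to 3.19). Ppp2r5c, a regulatory subunit of the phosphatase PP2A, had a ratio of 3.56 (1.80 to 7.82) and was detected in 21 members, and Pbxip1, which binds PBX factors, 3.37 (1.70 to 7.43) in 22 members. Thinned to 2000 UMIs, Pbxip1 had a ratio of 1.98 (0.623 to 8.27), under the limit of 2, and Ppp2r5c of 3.21 (0.929 to 17.1). The smallest ratios at TAC-2w, from 0.00847 to 0.0715, were those of Col3a1, Dcn, Sparc, Igfbp7 and Gsn, genes of fibroblasts and matrix of which 1 sham member held 50.5% (Dcn) to 72.3% (Sparc). Without marker-carrying barcodes Dcn had a ratio of 1.78 (0.712 to 5.30) and Sparc 1.28 (0.229 to 12.97). Igfbp7 was then at 0.996 (0.227 to 5.97), Gsn at 0.616 (0.368 to 1.05) and Col3a1 at 0.427 (0.00544 to 33.5).

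At TAC-4w Thbs1 (thrombospondin 1) gave 82 UMIs in 8 members and 0 in sham, at least 19.1-fold higher against a floor of 3 UMIs, and Lcn2 (lipocalin 2), a neutrophil granule protein, 152 UMIs against 2, a ratio of 53.0 (14.4 to 442). Neither gave a UMI at TAC-4w without marker-carrying barcodes. Ly6c1 and Ptprb, both genes of endothelial cells, had 98.6% and 100% of their UMIs in 1 member. Cstdc4, a gene of the stefin family, gave 52 UMIs in 6 members, of which 1 held 50%. Its TAC-4w level went from 316 to 11.6 CPM without marker-carrying barcodes. Mt1 (metallothionein) and Nppa (atrial natriuretic peptide) gave 0 UMIs at TAC-4w, at least 38.2-fold and 28.7-fold lower than in sham, where 1 member held 85% and 86.7% of them, and Mgp, Col3a1 and Dcn had ratios of 0.0117, 0.0093 and 0.00677. Without marker-carrying barcodes these were 0.227 (0.0230 to 1.19), 0.794 (0.0101 to 62.3) and 0.397 (0.0642 to 1.86).

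At TAC-6w, with 6 members, high ratios were those of the actin-binding peptide Tmsb10 at 3.41 (2.61 to 4.44), the ribosomal gene Rps28 at 3.10 (2.51 to 3.82), the G protein subunit Gng5 at 2.80 (1.90 to 4.08) and Emp3 at 2.79 (1.72 to 4.44). These 4 had ratios of 2.09 or more without marker-carrying barcodes, and all 6 members held Tmsb10, Rps28 and Gng5. Thinned to 2000 UMIs, Emp3 had a ratio of 1.49 (0.619 to 3.37), under the limit of 2. The TAC-6w library also held the fewest UMIs in total, and sham and TAC-6w share a batch label. The lowest were Col3a1, Gsn and Dcn, with ratios of 0.0611, 0.0469 and 0.0111, and Hbb-bs (a haemoglobin chain) and Nppa with 0 UMIs, at least 3.78-fold and 4.36-fold lower. Without marker-carrying barcodes Gsn had a ratio of 0.396 (0.0769 to 1.29) and Dcn of 0.594 (0.0129 to 4.90).

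The tissue sections gave few UMIs of Treml4 and Cd300e, and more of Csf1r, which macrophages also carry. Over 1676, 2063, 1228 and 2193 spots and 25996378, 48754396, 31942372 and 48288659 UMIs in sham and the 3 TAC libraries, Treml4 gave 0, 1, 8 and 6 UMIs and Cd300e 0, 1, 10 and 5. A count of 0 in sham allows up to 0.115 CPM (3 UMIs), and the TAC-4w values were 0.250 CPM for Treml4 and 0.313 CPM for Cd300e. Ear2 gave 4, 25, 35 and 24 UMIs, with ratios to sham of 3.33 (1.15 to 13.2), 7.12 (2.55 to 27.6) and 3.23 (1.11 to 12.8). Spn gave 6, 19, 71 and 73 UMIs, with ratios of 1.69 (0.648 to 5.17), 9.63 (4.21 to 27.1) and 6.55 (2.87 to 18.4), and Fcgr4 44, 43, 591 and 224 UMIs, with 0.521 (0.334 to 0.812), 10.9 (8.04 to 15.2) and 2.74 (1.98 to 3.88). Per UMI these genes were highest in the TAC-4w section, while Cx3cr1, with 23, 39, 57 and 159 UMIs, was highest at TAC-6w (3.72, 2.39 to 6.04, against 2.02, 1.22 to 3.43, at TAC-4w). Csf1r gave 736, 1293, 1416 and 1909 UMIs, with ratios of 0.937 (0.855 to 1.03), 1.57 (1.43 to 1.71) and 1.40 (1.28 to 1.52). Ly6c2, a gene of classical monocytes, gave 13, 20, 151 and 304 UMIs and the neutrophil marker S100a8 300, 113, 1276 and 311. At TAC-4w S100a8 had a ratio to sham of 3.46 (3.05 to 3.94). Which cells the section UMIs of Ear2, Spn and Fcgr4 came from was not tested. Adgre4, with 9, 14, 18 and 32 UMIs, had ratios of 0.829 (0.334 to 2.17), 1.63 (0.694 to 4.11) and 1.91 (0.893 to 4.56), and like Ace was highest at TAC-6w.

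A spot can hold several cells of different types, and in a section more cells of a type and more RNA per cell cannot be told apart. Ace, which endothelial cells also make, gave 946, 1128, 927 and 3292 UMIs, and Nr4a1, which many cells induce, 132, 365, 1175 and 1019. The sham and TAC-2w sections shared batch 1 by the labels, and TAC-4w and TAC-6w belonged to batches 2 and 3, so neither can be told apart from its batch.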

How the data were processed

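The deposited single-cell files hold raw UMI counts per gene and barcode for 32285 mouse genes, made by the authors with Cell Ranger (6.0.0 in the file headers, 7.0.0 in the submitters' processing notes) on build mm10. The deposited section files hold raw UMI counts per spot, made with Space Ranger (1.2.0 in the headers, 1.3.1 in the notes). Members and gene lists were chosen with earlier results of these data known. Levels are UMIs per 1000000 UMIs of a class summed in a library (CPM), with exact Poisson or binomial 95% intervals that cover counting error only. A count of 0 was given a floor of 3 UMIs. Classes were compared on sums per library with edgeR 4.0.16 (R 4.3.3): filterByExpr, TMM, the library as a block because both sums come from the same library, the quasi-likelihood test and Benjamini-Hochberg adjustment at 0.05. A library entered with at least 10 cells of each class. The comparison left out the 11 genes of the rules. On simulated counts for this comparison, 3451 genes passed the filter, 174 of them changed 4-fold. Of these 174, 80.5% were recovered, with 3 false among 143 calls. Changed genes that the filter removed were not scored. The simulation gave every gene the same dispersion and held no mixture of cell types, so these rates need not hold for the real counts.

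Named genes were the 10 with the greatest and the 10 with the smallest log2 fold change among those called with 1 direction in every library of the fit, the 5 with the highest and the 5 with the lowest ratio to sham per TAC library among genes with at least 50 UMIs, and members of the fixed lists. A few genes that met these rules are not reported here. B cell barcodes held at least 2 UMIs of Cd79a and none of Csf1r or Cd3e. Doublets were kept, and Scrublet was run as an alternative (the 3.2% of barcodes with the highest scores removed). Other alternatives were other thresholds, thinning, DESeq2 1.42.0, no filter, no block, each library left out, and totals without mitochondrial and rRNA-like genes.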

Additional observations from a re-analysis of the deposited data

How the results depend on the processing

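With 1 library a condition, 3 libraries in the only test and 6 members at TAC-6w, depth limits what can be said of genes with few UMIs, and whether libraries pool animals is not given. The 198 higher and 187 lower genes became 122 and 66 without the replicate block, 120 and 121 with DESeq2, 215 and 413 with no filter on low counts, 123 and 147 thinned to 2000 UMIs, and 72 to 135 higher and 96 to 130 lower with 1 library left out (72 and 96 without TAC-4w). With doublets removed they were 246 and 251, with at least 3 UMIs of Cd300e and Treml4 258 and 241, and with TAC-6w included 226 and 249. The cause of these changes was not tested. No paired analysis was possible because each condition had 1 library, apart from the block above.

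Thinned to 2000 UMIs, members were 0.0388% of sham barcodes with at least 2000 UMIs (11.5% of monocytes), 0.246% at TAC-2w and 0.118% at TAC-4w (2.19%). With at least 1 UMI of Cd300e and Treml4 they were 0.845% at TAC-4w (11.1% of monocytes) and 0.631% at TAC-2w, so TAC-4w was then highest. Under a mitochondrial share of 5% they were 0.624% at TAC-4w. Without marker-carrying barcodes they were 0.237% at TAC-4w. Of monocytes they were then 58% (TAC-2w), 29.4% (TAC-6w) and 9.14% (TAC-4w). The 36 remaining recomputed shares, with the 0.631% at TAC-2w among them, stayed within the interval of the reported share.

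Genes past the ratio to sham numbered, at 2, 4 and 6 weeks, 125, 241 and 61 higher and 63, 93 and 158 lower with a minimum of 20 UMIs. Thinned, they numbered 5, 14 and 5 higher and 4, 6 and 15 lower. Without marker-carrying barcodes 5 were lower at TAC-2w, 26 at TAC-6w and 11 at TAC-4w, where 7 were higher. Without them the TAC-2w ratios of Dcn (1.78) and Sparc (1.28) turned above 1. With mitochondrial and rRNA-like genes left out of the total, the section ratios of Eno3 at TAC-2w (0.912) and Pglyrp1 at TAC-6w (0.964) turned below 1. Another 16 section ratios left the counting interval of the reported ratio, and 30 stayed within it. Csf1r at TAC-2w was then 0.802 (0.732 to 0.879). The Ear2 intervals at TAC-2w and TAC-6w then started below 1, at 0.985 and 0.963. Of the recomputed ratios of named genes to sham, 104 stayed within the counting interval of the reported ratio or were 0 as reported, 22 left it and 2 (Dcn and Sparc) turned. Of the named genes of the class comparison, 154 of 160 recomputed values kept their direction and call and 6 kept the direction alone. A further 40 of the 200 could not be recomputed because the gene was not tested under that alternative (14 of 20 genes when thinned, 8 without the block), Adrb1 under 6 of 10 alternatives.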
